A study of Mus musculus with 20 samples.

Results

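Dietary fat and starch are cleaved by enzymes that the acinar cells of the pancreas release into the duodenum, and starch is also cleaved by an amylase of saliva. Pancreatic lipase works on fat droplets together with colipase, a small protein that anchors it where bile salts cover the surface, while carboxyl ester lipase needs bile salts themselves. The data described here are those of 7 such genes, namely Pnlip, Pnliprp1, Pnliprp2, Cel, Clps, Amy1 and Amy2a5, out of 30139 genes or transcripts measured. All probes that carry the name of one of them were taken, which gave 9 of 39429 probes. The 7 genes were chosen by their lower array levels in the colonic macrophage samples labelled Irgm1-/- than in the wild type ones, so their values in that comparison are a description and no test is given for them.

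RNA of C57BL/6 mice was hybridised to 20 single-colour arrays, 1 mouse per array. Irgm1 encodes a GTPase that interferon induces, known for its part in clearing intracellular microbes and in autophagy. Whole salivary gland came from 4 female mice labelled Irgm1-/-, aged 9 weeks, and from 4 female wild type mice, aged 6 or 7 weeks; the labels do not say which salivary gland was taken. Duodenum, taken whole, and isolated colonic macrophages came from 3 mice labelled Irgm1-/- (2 males aged 6 and 8 weeks and 1 female aged 6 weeks) and 3 wild type females, of which 2 were 6 weeks old and 1 was 8 weeks old. Animal numbers in the deposited files tie the duodenum and macrophage arrays to the same 6 mice. Sex therefore cannot be told apart from genotype in the duodenum and macrophage groups, beyond the 1 female labelled Irgm1-/-, nor age from genotype in salivary gland.

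Unless another scale is named, every level below is a log2 intensity relative to the 75th percentile of its array, as measured by 1 probe, and levels of different probes are not set against each other. In duodenum and macrophages the percentile was taken over all probes and lay between 2322 and 4690 and between 922 and 2137 intensity units. In salivary gland, where few probes were measurable, it was taken over the probes well above background on all 8 arrays and lay between 1471 and 10255 units. The share of probes well above background, the scanner software's flag for a measurable spot, was 25.3% to 48.8% in salivary gland, 52.6% to 62.1% in duodenum and 57.1% to 74.4% in macrophages. Irgm1 itself was higher on the arrays labelled Irgm1-/-, by 2.64 in salivary gland (SE 0.23, n = 4 per group, limma adjusted p = 0.000562), by 1.16 in duodenum (SE 0.14, n = 3 per group, adjusted p = 0.0542) and by 0.88 in macrophages (SE 0.31, n = 3 per group, adjusted p = 0.318). Since no source used here gives the part of Irgm1 that was removed, its probes do not check the label, and each array is named by what it was labelled. At least 1 array showed measurable signal for all 12 macrophage markers in the macrophage samples, for all 12 measured salivary acinar markers in salivary gland and for all 10 enterocyte markers in duodenum. Such counts do not show what a sample was made of. All 12 macrophage markers were also measurable in salivary gland and in duodenum, and all 10 enterocyte markers in the macrophage samples. Salivary acinar markers numbered 3 in duodenum and 10 in macrophage samples, and enterocyte markers 4 in salivary gland.

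The amylase probes are shown because Amy1 and Amy2a5 are close relatives on chromosome 3, and a probe of one can bind RNA of the other. In the pair of probes below, which read the ends of the coding sequences, 39 of 46 overlapping bases are identical (84.8%), and capitals mark the bases that differ within the overlap. The next closest pair of probes shares 24 of 60 bases.
Amy1: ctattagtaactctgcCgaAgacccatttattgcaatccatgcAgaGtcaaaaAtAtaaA
Amy2a5: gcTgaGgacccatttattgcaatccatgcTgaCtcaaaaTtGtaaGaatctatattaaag
A second Amy2a5 probe starts at base 632 of its transcript, upstream of that probe at base 1499, and stands for the gene in the tests below. The Clps probe at base 152 (chromosome 17) is shown because it was not measurable in salivary gland although the other Clps probe was.
Clps: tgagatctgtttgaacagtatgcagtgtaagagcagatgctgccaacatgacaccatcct

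In acinar cells many enzyme genes are switched on by a complex of Ptf1a, a bHLH partner and Rbpjl or Rbpj, which reads an E box next to a TGGGAA box. The 250 bases before the start of transcription are given for 3 genes that moved together in macrophages (RefSeq, GRCm38.p6), with capitals at matches, on either strand, to the E box CACCTG, to the E box written CAGCTG (its own reverse complement), or to a TGGGAA box.
Cel, chr2:28563404-28563653, minus strand: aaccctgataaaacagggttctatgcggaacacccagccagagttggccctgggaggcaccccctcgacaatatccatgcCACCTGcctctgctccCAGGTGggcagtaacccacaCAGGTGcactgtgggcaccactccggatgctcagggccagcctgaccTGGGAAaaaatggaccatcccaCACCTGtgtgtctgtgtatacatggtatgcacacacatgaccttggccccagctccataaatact
Pnlip, chr19:58670115-58670364, plus strand: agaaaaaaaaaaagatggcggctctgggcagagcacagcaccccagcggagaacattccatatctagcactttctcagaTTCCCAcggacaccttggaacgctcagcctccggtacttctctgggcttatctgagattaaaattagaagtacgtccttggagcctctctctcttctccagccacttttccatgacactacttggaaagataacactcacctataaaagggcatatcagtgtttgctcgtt
Amy2a5, chr3:113258700-113258949, minus strand: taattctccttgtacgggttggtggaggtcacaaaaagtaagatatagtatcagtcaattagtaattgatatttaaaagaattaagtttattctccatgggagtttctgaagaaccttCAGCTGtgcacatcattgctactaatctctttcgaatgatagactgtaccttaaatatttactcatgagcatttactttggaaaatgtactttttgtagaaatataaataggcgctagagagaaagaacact
The Cel window holds 5 matches, and the windows of Pnlip and Amy2a5 hold 1 each. Of the 6 members with a window in the table, 4 hold TGGGAA (Amy1, Cel, Pnlip and Pnliprp1), a motif in 21.6% of all 32851 windows. Members are counted by gene if any window matches, whereas the shares are of windows, and a further window of Amy1 holds no match. CACCTG is in the windows of Cel and Pnliprp2 and in 17.2% of all windows, and CAGCTG is in that of Amy2a5 and in 13.0% of all. These matches are descriptions of the letters only.

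In colonic macrophage samples all 7 genes were far lower on the arrays labelled Irgm1-/- than on the wild type arrays. Pnliprp1 and Pnliprp2 have only a bound, and the other 5 had mean differences from -8.67 for Amy2a5 to -3.88 for Clps. The median over the 7 was -7.01, also with the 2 genes at their bound, against a median of 0.10 over all 21095 genes tested. For all 9 probes each array labelled Irgm1-/- lay below each wild type array, which was so for 7.87% of all genes tested, and since the genes were chosen in this comparison nothing is read from that count. In samples of many cells, fewer cells of a type and less RNA per cell cannot be told apart.

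Pnlip, the main triglyceride lipase of pancreatic juice, was at -3.50, -3.82 and -3.04 on the arrays labelled Irgm1-/- of mice 1 to 3, against 5.41, 3.97 and 3.50 on the wild type arrays of mice 1 to 3. Mouse 2 labelled Irgm1-/- was not well above background, and the groups were far apart. Before scaling the signal was 129, 105 and 226 intensity units in mice labelled Irgm1-/- and 39273, 25749 and 24100 units in wild type mice, and the mean scaled difference was -7.75 (n = 3 per group). Pnliprp1, a relative of Pnlip with little known lipase activity, stayed below that mark in all 3 mice labelled Irgm1-/- (-4.82, -5.20 and -5.91) and reached 5.01, 3.41 and 2.43 in wild type mice. Where a group has no array well above background, its fold is given as a bound, in which each of its arrays counts at the dimmest measurable probe of that array, or at the gene's own level where higher. On that basis Pnliprp1 was at least 241.7-fold lower in the mice labelled Irgm1-/-.

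Pnliprp2, a lipase that also cleaves galactolipids, was at -5.94, -5.90 and -5.97 on arrays labelled Irgm1-/-, none of them well above background, against 1.08, -1.47 and -2.34 in wild type mice, and was at least 10.5-fold lower. Cel, the bile salt-dependent carboxyl ester lipase, stayed measurable in every mouse. It stood at -2.43, -2.24 and -1.47 in mice labelled Irgm1-/- and at 6.17, 4.80 and 3.91 in wild type mice, a difference of -7.01.

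Clps encodes colipase. Its probe at base 431 read 2.13, 2.59 and 1.40 in mice labelled Irgm1-/- against 7.03, 5.86 and 4.87 in wild type mice (difference -3.88). The probe at base 152 read 0.26, 1.21 and -0.23 against 6.50, 4.77 and 4.22 (difference -4.76). Both probes were thus measurable in all 6 mice and kept the groups apart.

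The amylases followed the lipases. Amy1, the gene of the salivary amylase, was at -2.10, -1.21 and -0.79 in mice labelled Irgm1-/- and at 4.04, 3.93 and 3.64 in wild type mice, a difference of -5.23. Amy2a5, a pancreatic amylase gene, was at -3.57, -3.35 and -2.50 in mice labelled Irgm1-/- and at 6.48, 5.53 and 4.57 in wild type mice at base 632, a difference of -8.67. Its probe at base 1499, the one close to the Amy1 probe in sequence, read -4.39, -3.65 and -1.72 against 7.05, 6.37 and 6.03 (difference -9.74). The part of Amy2a5 RNA in the signal of the Amy1 probe was not tested. Both Amy2a5 probes were well above background in 1 mouse labelled Irgm1-/- only, mouse 3, the female. In that mouse Amy1, Amy2a5, Cel and Pnlip were also the highest of their group, yet below every wild type array. Clps by both probes, Pnliprp1 and Pnliprp2 were instead the lowest of their group there, with Pnliprp1 and Pnliprp2 not well above background.

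**Figure D1:**
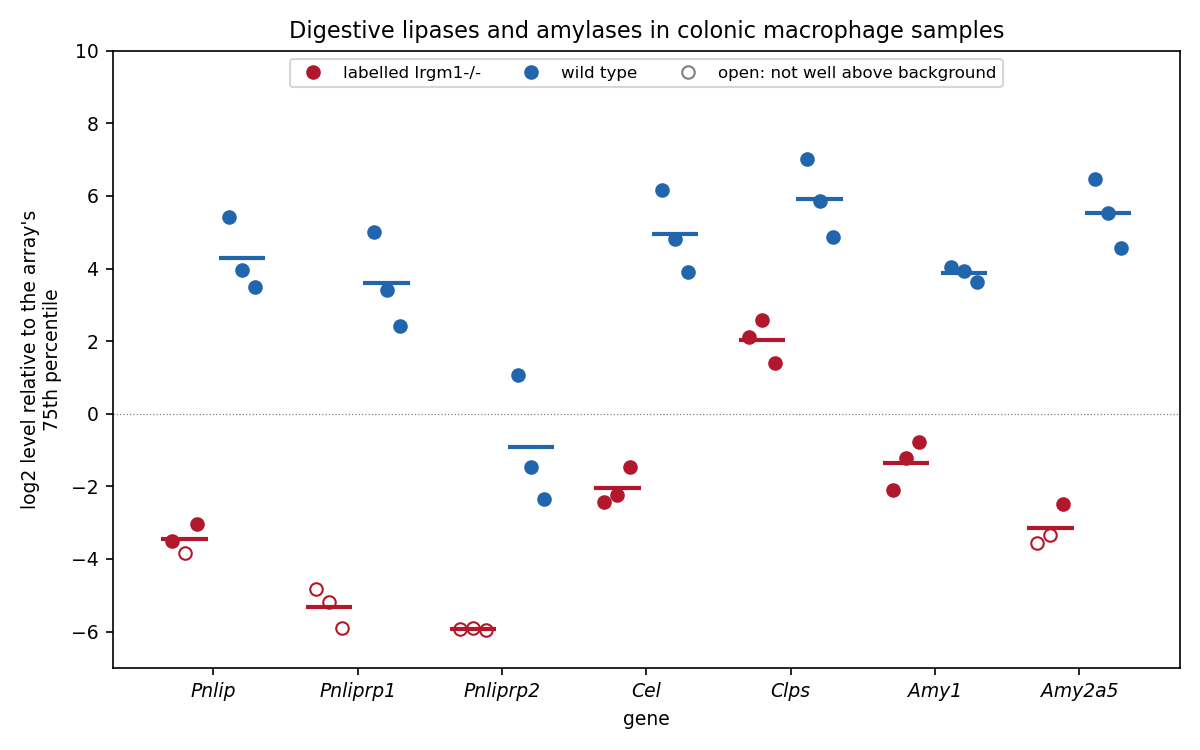
Level of each gene on the 6 colonic macrophage arrays, by 1 probe per gene, on a log2 scale relative to the array's 75th percentile; each point is 1 mouse in the order of mouse numbers, and lines are means of 3. For all 7 genes the points of mice labelled Irgm1-/- (left of each pair) lie below those of wild type mice, and those of Pnliprp1 and Pnliprp2 are all open, that is, not well above background.

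The wild type macrophage samples also differed among themselves in a shared way. For all 9 probes wild type mouse 1 (8 weeks old) was highest, mouse 2 next and mouse 3 lowest (both 6 weeks old), with Amy1 closest together (4.04, 3.93 and 3.64) and Pnliprp2 farthest apart (1.08, -1.47 and -2.34). The percentiles that set the scale ran the other way, at 922, 1646 and 2137 intensity units, and without scaling 7 of the 9 probes kept the order. The groups held on both slides, each of which carried both genotypes: the difference in Pnlip was -8.35 on the first slide (mice 1 and 2) and -6.53 on the second (mouse 3), and that in Amy2a5 was -9.47 and -7.07. Across the 6 macrophage arrays the other members followed Pnlip with Pearson r of 0.960 (Clps) to 0.998 (Amy2a5), a description of arrays whose 2 groups the members were chosen to separate.

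Genes of other pancreatic acinar products were low and high on the same macrophage arrays. Of 25 such genes listed without the 7 members, 23 were measured and 22 tested. For 18 of the 22 every array labelled Irgm1-/- lay below every wild type array, as was so for 7.87% of all genes tested. The median difference was -5.43 (-5.10 with 6 genes at their bound). Those 6 were tested only because they were measurable in wild type mice. Others of the list, Prss2 and Try5 among them, were measurable in 1 mouse labelled Irgm1-/- and also passed only through wild type mice. The count of 18 thus rests in part on genes admitted by the group in which they are high. Cela2a, an elastase, was at -5.99, -6.00 and -5.12 in mice labelled Irgm1-/-, none well above background, and at 6.78, 5.39 and 4.66 in wild type mice, at least 963.2-fold lower. Try4, a trypsinogen, was likewise not well above background in any mouse labelled Irgm1-/- and at least 860.3-fold lower. The trypsinogens Prss2 and Try5 were well above background in 1 of 3 mice labelled Irgm1-/-, mouse 3, where they stood at -3.96 and -2.99, and their lowest wild type levels were 4.99 and 4.43.

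The other 4 tested genes of that list overlapped between the groups, and are named after their values were seen. Spink1, a trypsin inhibitor, averaged 4.73 ± 0.52 in mice labelled Irgm1-/- and 4.31 ± 0.76 in wild type mice (SD, n = 3 each). Sycn, which encodes syncollin of the secretory granule, averaged 4.80 ± 0.59 and 5.60 ± 1.19 in that order of groups. The transcription factor genes Ptf1a (-2.47 ± 0.46 against -2.34 ± 0.27) and Rbpjl (-0.47 ± 0.24 against -0.36 ± 0.51) differed by less than the spread between mice. The list's summed level, on the log2 scale, was 5.62 to 6.45 in mice labelled Irgm1-/- and 8.22 to 10.50 in wild type mice. The part of pancreatic tissue in the levels of the 7 genes was not tested.

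**Figure D2:**
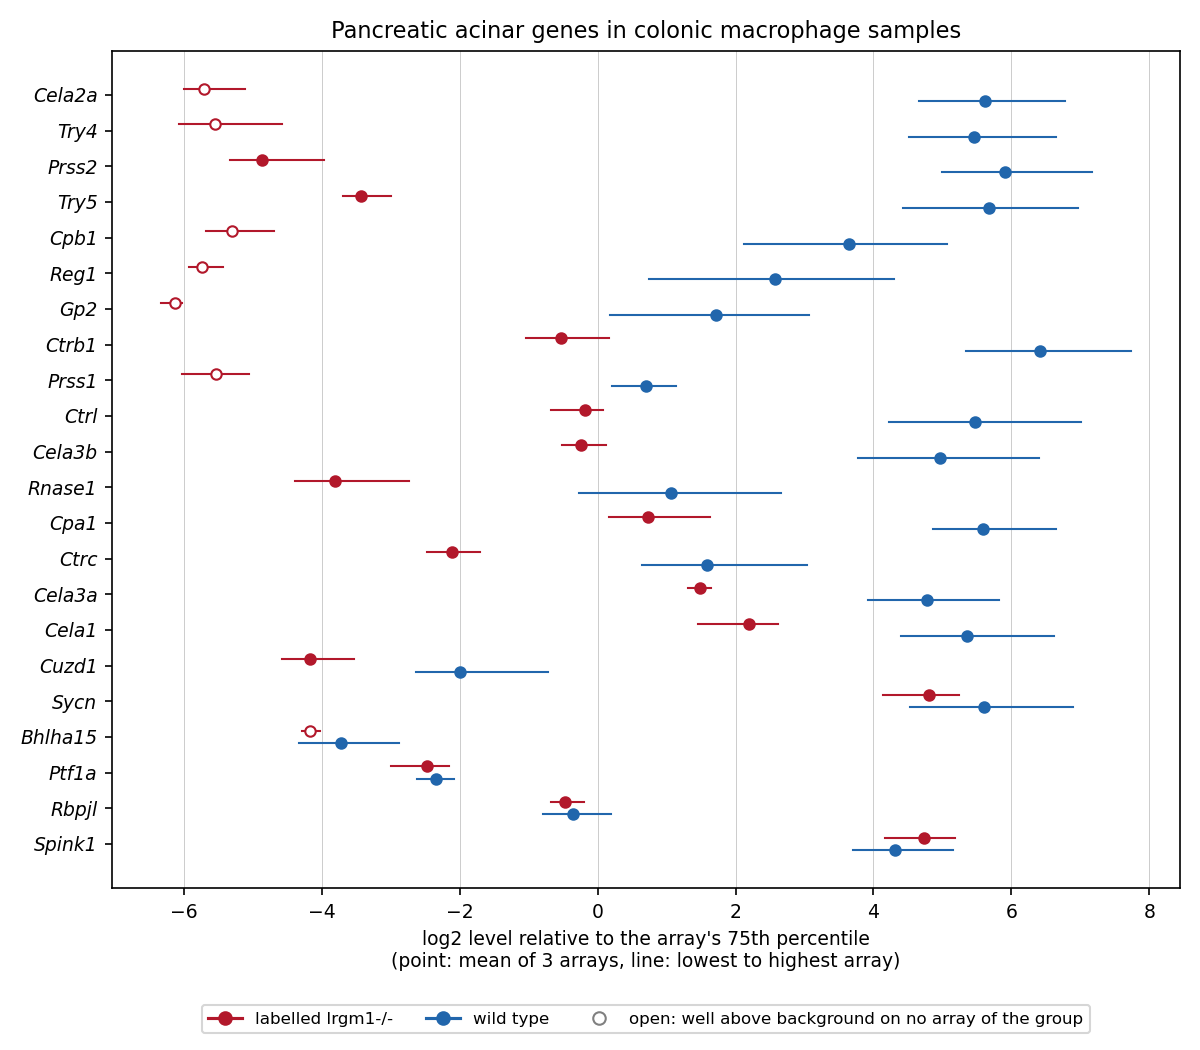
Most of the other pancreatic acinar genes on the 6 colonic macrophage arrays, with the mean of 3 mice as a point and a line from the lowest to the highest mouse, on the log2 scale relative to the array's 75th percentile. Genes run by mean difference, with open points for groups that have only a bound. Cela2a, Try4, Prss2 and Try5 at the top keep the groups far apart, while Ptf1a, Rbpjl and Spink1 at the bottom overlap between mice labelled Irgm1-/- and wild type mice.

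Other cell types were compared in the same samples. The 11 tested macrophage markers had a median difference of -1.23, with groups that overlapped for all 11, and a summed level of 7.29 to 7.97 in mice labelled Irgm1-/- against 7.67 to 8.17 in wild type mice. Among them the complement gene C1qa averaged -0.58 ± 0.89 against 0.99 ± 1.20 in wild type mice, and the chemokine receptor gene Cx3cr1 -2.66 ± 1.02 against -1.17 ± 0.86 (SD, n = 3 each). Cd14 and Fcgr1, named after their values were seen, were higher by 0.65 and 0.36, and the other tested markers were lower. The summed level is mostly that of Itgam, at 7.15 to 7.89 in mice labelled Irgm1-/- and 7.51 to 8.11 in wild type mice, and says little of the other markers. Enterocyte markers had a median difference of 0.16 over 9 tested genes and a summed level of 6.16 to 7.10 against 5.99 to 7.37 in wild type mice. Of the pancreatic islet list, 6 of 8 genes were tested, with a median difference of -0.08 and a summed level of 1.92 to 2.86 against 0.66 to 5.14 in wild type mice. The sum of 0.66 is of the wild type array on which Ins2 is missing, so the 2 ranges are not comparable. The insulin gene Ins1 averaged -1.82 ± 0.45 in mice labelled Irgm1-/- and 0.99 ± 2.43 in wild type mice (SD, n = 3 each), and Ins2 differed by -1.51, with 1 wild type array left out because its spots were outliers. The other tested islet genes, named after their values were seen, went both ways. Pdx1 differed by -0.35, Gcg by 0.53, Sst by 0.69 and Ppy by 0.20, the last also without 1 wild type array.

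By likeness of pattern, the genes nearest to Pnlip over all 20 arrays, among 23590 genes and without the members, were Try5 (Pearson r = 0.990), Prss2 (0.982), Ctrl (0.979), Try4 (0.976), Cela2a (0.973), Tff2 (0.963), Cela3b (0.959), Ctrc (0.951), Prrt2 (0.938) and Radil (0.936). The arrays share tissue, scan day and genotype, so these values are descriptions. Tff2, which encodes a trefoil peptide of mucus-secreting cells, was the highest of these that is not a pancreatic protease gene, and was at -2.02, -2.09 and -1.04 in macrophages of mice labelled Irgm1-/- against 4.12, 2.33 and 1.18 in wild type mice. Over the 6 macrophage arrays alone the nearest included Prss2, Cela2a, Try5, Try4, Cpb1, Ctrb1, Prr5l, Reg1 and Mpp1, with r from 0.993 to 0.999. Of 21095 genes tested there, 92 had r above 0.95 with Pnlip, over arrays that fall into separate groups. Prr5l and Mpp1 shared the order of arrays but not the size, at -1.99, -2.07 and -1.91 against -1.05, -1.07 and -1.14 for Prr5l. Of the members, Cel was the one nearest to Pnlip over 20 arrays (r = 0.981), followed by Pnliprp1 (0.823), Amy2a5 (0.665), Amy1 (0.459), Clps (0.358) and Pnliprp2 (-0.161).

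In duodenum, the tissue into which the pancreas empties, none of the 7 genes changed with genotype past the threshold. Pnlip was not well above background on any of the 6 arrays and was not tested. Of the 6 other genes, 0 passed (limma, Benjamini-Hochberg adjusted p = 0.666 to 0.737; 1 at an unadjusted p under 0.05), as 0.145% of 17984 genes did. Their differences lay between -1.40 and -0.37 with a median of -0.70, and the median over all genes tested was -0.10.

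Clps was bright in duodenum, at 4.36, 4.95 and 4.71 in mice labelled Irgm1-/- against 5.59, 5.08 and 5.46 in wild type mice. These groups did not overlap, as was so in this direction for 12.5% of genes tested, and the difference of -0.70 (SE 0.22, limma adjusted p = 0.666, n = 3 per group) did not pass. The scale of the arrays moved with genotype here, and its part in the difference was not tested: the 75th percentile was 3868 to 4690 intensity units on the arrays labelled Irgm1-/- and 2322 to 3204 on the wild type arrays. The unscaled signal overlapped, with 96088, 119960 and 118620 units in mice labelled Irgm1-/- and 111510, 108510 and 121240 units in wild type mice. Within slides the difference was -1.23 on the first and -0.44 on the second.

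Pnliprp2, dim in macrophages, was clearly measurable in duodenum. It was at 1.50, 1.37 and 1.84 in mice labelled Irgm1-/- and at 2.34, 1.46 and 2.65 in wild type mice, and the groups overlapped (difference -0.58, SE 0.33, limma adjusted p = 0.666, n = 3 per group). Pnliprp1 averaged -3.26 ± 0.30 in mice labelled Irgm1-/- and -2.56 ± 0.52 in wild type mice, and Cel averaged -3.69 ± 0.42 and -3.33 ± 0.64 in that order (SD, n = 3 each), with overlap for both. Amy1 was at -1.86, -3.19 and -1.06 in mice labelled Irgm1-/- and at -2.05, 0.03 and 0.10 in wild type mice, so that wild type mouse 1 lay within the range of the mice labelled Irgm1-/-. Amy2a5 was at -3.42, -4.87 and -2.48 in mice labelled Irgm1-/- and at -5.20, -1.35 and -1.31 in wild type mice, with mouse 2 labelled Irgm1-/- and wild type mouse 1 not well above background. Wild type mouse 1 was the lowest of the 6 for Amy2a5, and the other wild type mice were the highest. Their slides went in opposite directions, at 0.19 and -2.19 for Amy1 and at 1.78 and -2.34 for Amy2a5, where the first slide holds 1 mouse per group.

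The animals behind these duodenum values are the ones behind the macrophage values. Wild type mouse 1 of the macrophage arrays, the highest for all 9 probes there, is wild type mouse 2 of the duodenum arrays, which for Clps was the lowest of the wild type mice in duodenum. In duodenum 10 of the 23 measured pancreatic acinar genes were not well above background on any array, among them Prss2, Try4, Try5 and Cela2a. Of the 12 tested, 0 passed, with a median difference of -0.45, and 5 were lower without overlap, as 12.5% of all genes tested were. The largest differences were those of Gp2, a granule membrane glycoprotein (-0.95, SE 0.42, limma adjusted p = 0.666), and Sycn (-0.91, SE 0.18, limma adjusted p = 0.306). Enterocyte markers summed to 8.46 to 8.70 in mice labelled Irgm1-/- and to 8.80 to 9.17 in wild type mice, and their part in the member values was not tested.

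In salivary gland the 2 amylases divided the mice sharply, and not by genotype. Amy1 was at -3.23, -4.15, 4.95 and 4.07 in mice 1 to 4 labelled Irgm1-/-, against 6.05, 6.07, -4.45 and -5.76 in wild type mice 1 to 4. It was thus high in mice 3 and 4 labelled Irgm1-/- and in wild type mice 1 and 2, and low in the other 4, where wild type mice 3 and 4 were not well above background. In intensity units this meant 1096, 216, 125430 and 27205 in mice labelled Irgm1-/- and 250380, 211810, 84.3 and 27.1 in wild type mice. The difference between the genotypes was -0.07 (SE 3.33, n = 4 per group, limma adjusted p = 0.992). On the first slide, which holds mice 1 and 2 of both groups, it was -9.75, and on the second, with mice 3 and 4, it was 9.61. Wild type mice 1 and 2 were 6 weeks old and wild type mice 3 and 4 were 7 weeks old. Age and slide therefore cannot be told apart from the split in wild type mice. The mice labelled Irgm1-/- were all 9 weeks old.

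Amy2a5 split the same mice. It was at -5.90, -6.95, 2.52 and 1.36 in mice labelled Irgm1-/- and at 4.52, 4.17, -5.80 and -5.54 in wild type mice (difference -1.58, SE 3.14, limma adjusted p = 0.78, n = 4 per group). Its probe at base 1499 showed the split too, with -8.84, -7.41, -0.55 and -1.85 in mice labelled Irgm1-/- against 1.31, 0.99, -6.22 and -5.90 in wild type mice. That probe shares most of its bases with the Amy1 probe, as shown by the pair of sequences above. The probe at base 632 was compared with the other probes only, not with the Amy1 transcript. The part of Amy1 RNA in the signal of either Amy2a5 probe was not tested. Over the 8 arrays Amy1 and Amy2a5 had a Pearson r of 0.981.

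The genes that followed Amy1 most closely over the 8 salivary gland arrays, among 11470 genes tested there, were the proline-rich salivary protein genes Prb1 (r = 0.994), Prpmp5 (0.983) and Prp2 (0.982), the chitinase gene Chia1 (0.977) and Smr3a (0.970), a gene of the submaxillary gland androgen-regulated protein family. Prb1 was at -0.71, -2.01, 4.18 and 3.60 in mice labelled Irgm1-/- and at 5.14, 4.72, -1.94 and -1.80 in wild type mice. Smr3a was at -6.15, -7.17, 1.61 and 2.43 in mice labelled Irgm1-/- and at 4.97, 5.21, -5.65 and -5.35 in wild type mice. Of all genes tested, 17 had r above 0.95 with Amy1, over arrays that fall into separate clusters, so these values describe who shares the split.

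Of other salivary genes, named after their values were seen, Klk1, Car6 and Dcpp1 did not divide the mice that way. Klk1, a kallikrein, lay between 5.52 and 7.28 in mice labelled Irgm1-/- and between 6.65 and 7.42 in wild type mice. Car6, the carbonic anhydrase of saliva, lay between 5.06 and 6.91 in mice labelled Irgm1-/- and between 6.48 and 7.56 in wild type mice. Dcpp1, a gene of demilune cell and parotid protein, was low in mouse 1 labelled Irgm1-/- (1.24) and in wild type mouse 3 (3.16), and lay between 5.04 and 6.07 in the other 6. Bpifa2, a secreted salivary protein gene, was well above background in every mouse but did share the order of the split. It was at 5.28, 5.86, 6.57 and 7.09 in mice 1 to 4 labelled Irgm1-/-. In wild type mice 1 to 4 it was at 6.78, 6.96, 1.99 and 4.96, so the 4 mice low for Amy1 were its 4 lowest. Of the 12 measured salivary acinar markers, 0 passed between the genotypes, 4 were lower without overlap in mice labelled Irgm1-/- (3.19% of all genes tested were), and their summed level was 7.50 to 9.76 in mice labelled Irgm1-/- and 9.18 to 10.10 in wild type mice. Of 11 macrophage markers tested in salivary gland 4 rose (2.28% of all genes tested passed), among them C1qa by 1.67 (SE 0.28, limma adjusted p = 0.018) and C1qc by 1.56 (SE 0.26, limma adjusted p = 0.0165). The part of either list in the amylase values was not tested.

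**Figure D3:**
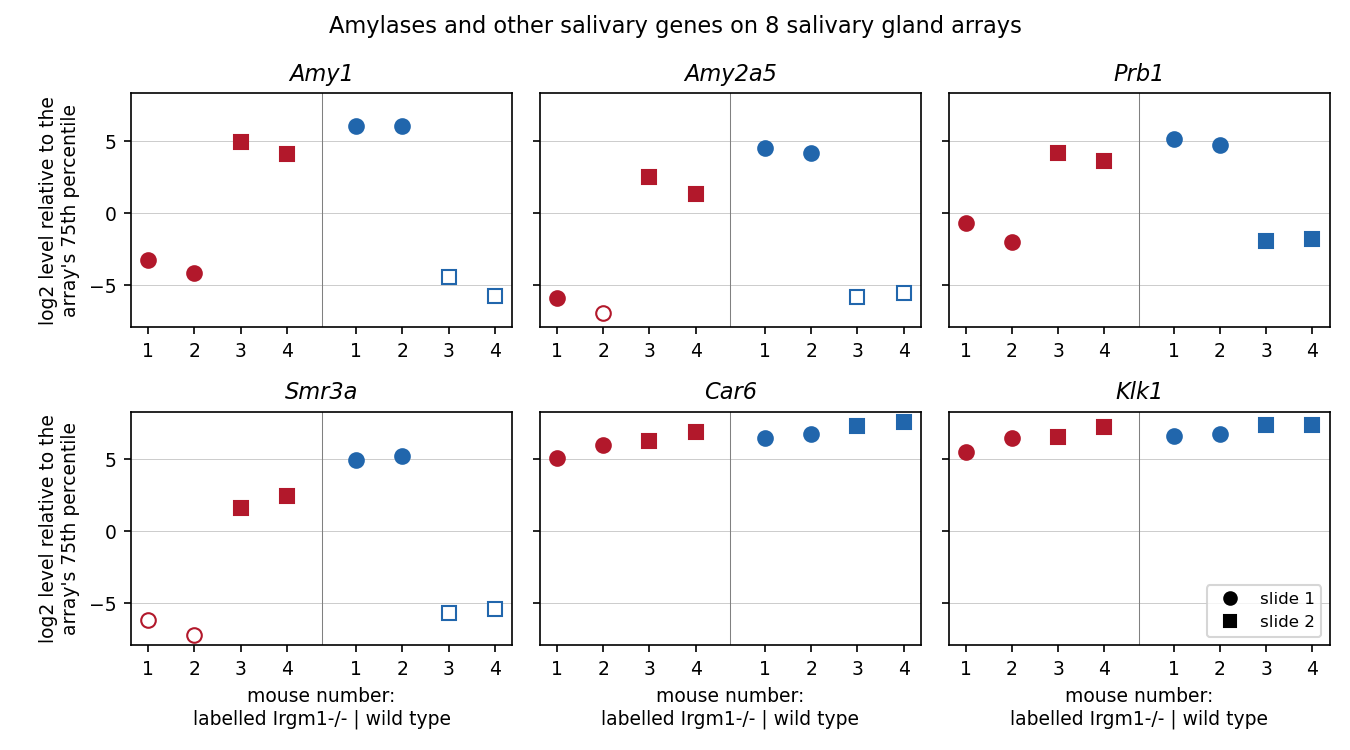
Amy1, Amy2a5 and 4 other salivary genes in each of 8 mice, mice labelled Irgm1-/- left of wild type mice, on the log2 scale relative to the array's 75th percentile over probes well above background on all 8 arrays; circles are slide 1, squares slide 2, and open symbols are not well above background. Amy1, Amy2a5, Prb1 and Smr3a are high in mice 3 and 4 labelled Irgm1-/- and wild type mice 1 and 2, whereas Car6 and Klk1 are above 5 in all 8 mice.

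The lipases were dim in salivary gland. Pnlip and Pnliprp2 were measurable on 0 of 8 arrays, and Pnliprp1 on 1 of 8, that of mouse 3 labelled Irgm1-/-. Cel was measurable in all 8 mice and averaged -3.99 ± 0.47 in mice labelled Irgm1-/- and -3.70 ± 0.35 in wild type mice (SD, n = 4 each), a difference of -0.30 (SE 0.26, limma adjusted p = 0.501). Clps read -2.62, -1.75, -1.10 and -0.49 in mice labelled Irgm1-/- and -1.11, -0.91, -0.14 and -0.12 in wild type mice at base 431 (difference -0.92, SE 0.44, limma adjusted p = 0.27, n = 4 per group). At base 152 the same gene gave no measurable signal in any of the 8 mice, so the probes of Clps disagree in this tissue. Of the 7 genes, 4 were tested in salivary gland and 0 passed (limma; 0 at an unadjusted p under 0.05), as 2.28% of 11470 genes did.

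For comparing tissues, all arrays were set to the 75th percentile of the probes well above background on all 20 arrays. Of the 6 genes that could be tested between wild type salivary gland and wild type duodenum, 3 differed past the threshold in a single limma fit of the 20 arrays, as 70.6% of 16573 genes did. Of the 3, 1 was higher in salivary gland (30.2% of all genes were) and 2 were lower (40.4% of all genes were). Tissue and scan day coincide and cannot be told apart, and the median difference over all genes was -0.24.

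On the common scale Cel was higher in wild type salivary gland than in wild type duodenum. Before scaling its signal was 144.5 to 222.1 intensity units in salivary gland and 210.4 to 369.1 units in duodenum. The direction therefore depends on the scaling. Scaled, Cel averaged -3.80 ± 0.35 in salivary gland (n = 4) and -6.72 ± 0.47 in duodenum (SD, n = 3), a difference of 2.91 (SE 0.42, limma adjusted p = 8.48e-06). Clps went the other way, with -0.68 ± 0.52 in salivary gland (n = 4) and 1.98 ± 0.17 in duodenum (SD, n = 3), a difference of -2.66 (SE 0.46, limma adjusted p = 6.1e-05). By its probe at base 152 it was at least 46.65-fold lower in salivary gland. Pnliprp2 was at least 12.14-fold lower in salivary gland than in duodenum (fitted difference -5.38, limma adjusted p = 3.1e-07).

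The amylases did not pass. Amy1 differed by 4.40 (SE 2.64, limma adjusted p = 0.145) and Amy2a5 by 5.24 (SE 2.55, limma adjusted p = 0.0763), and for both the single salivary glands overlapped the duodenum values. Without wild type salivary gland mouse 4 they passed, at 6.50 (limma adjusted p = 0.0296) and 6.89 (limma adjusted p = 0.0251), and Amy2a5 also passed without mouse 3, at 6.96 (limma adjusted p = 0.0229). Pnliprp1, below background in wild type salivary gland, differed by 0.54 (SE 0.71, limma adjusted p = 0.509), a value that changed sign or passed under other processing.

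The order of the 6 groups differed from gene to gene on this common scale. For Pnlip wild type macrophage samples stood at 1.88 ± 0.88 (SD, n = 3), and all other groups had means at or below -5.95. For Pnliprp2 duodenum had the highest means, at -1.60 ± 0.30 in mice labelled Irgm1-/- and -1.24 ± 0.58 in wild type mice, which overlap. Wild type macrophage samples came next at -3.32 ± 1.65, though their mouse 1, at -1.48, lay within the duodenum range. For Clps the order was wild type macrophages (3.51 ± 0.96), then duodenum of wild type mice (1.98 ± 0.17) and of mice labelled Irgm1-/- (1.50 ± 0.26), then macrophages labelled Irgm1-/- (-0.46 ± 0.50) and wild type salivary gland (-0.68 ± 0.52), these last 2 within their spread. For Amy1 wild type macrophages averaged 1.46 ± 0.12, while the 4 high salivary glands lay between 3.97 and 5.95 and the 4 low ones below every wild type macrophage sample. Macrophages labelled Irgm1-/- lay at -4.77 to -3.10 for Amy1, overlapping duodenum of mice labelled Irgm1-/- (-6.43 to -4.18) and of wild type mice (-5.65 to -3.20).

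**Figure D4:**
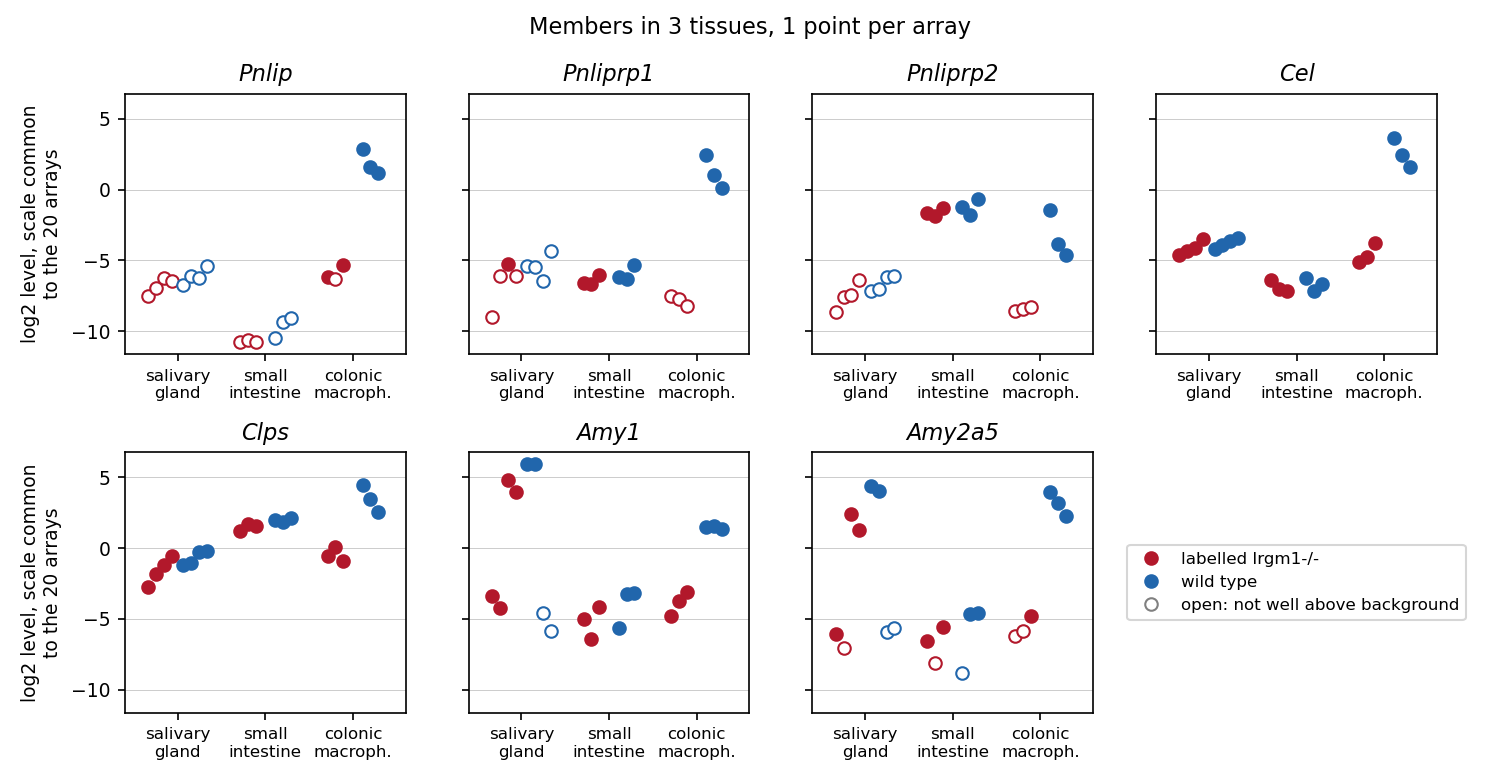
The 7 genes on all 20 arrays, on a log2 scale common to the arrays, with mice labelled Irgm1-/- left of wild type mice in each tissue and open points not well above background. Wild type macrophage samples are the highest points for Pnlip, Pnliprp1 and Cel, and 4 of 8 salivary glands for Amy1. For Pnliprp2 the highest points are of duodenum, with wild type macrophage mouse 1 within the duodenum range.

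The genotype difference of a member was also compared between salivary gland and duodenum, as an interaction in the same fit. Of the 6 genes tested 0 passed (limma adjusted p = 0.838 to 0.95; 0 at an unadjusted p under 0.05), as 0.263% of 18642 genes did. The difference of differences was -0.45 (SE 0.66) for Clps and -0.17 (SE 0.60) for Cel. For Amy1 it was 1.09 with an SE of 3.74, which leaves even large differences undetectable with these numbers of mice.

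Other genes of fat and starch digestion were read from lists, and 0 of those tested in salivary gland and 0 of those tested in duodenum passed the threshold (limma). Of 20 lipid digestion and uptake genes, 8 were tested in salivary gland, 16 in duodenum and 15 in macrophages, with median differences of 0.32, -0.33 and -0.29. In duodenum 7 of the 16 were lower without overlap, as 12.5% of all genes tested were. Fabp1, a fatty acid-binding protein, was at 0.83 ± 0.26 in mice labelled Irgm1-/- and 1.73 ± 0.24 in wild type mice (SD, n = 3 each; difference -0.90, SE 0.20, limma adjusted p = 0.412). Cd36, a fatty acid receptor, differed by -0.57 there. In macrophages Mgll, which cleaves monoglycerides, differed by -1.54 and the hormone-sensitive lipase gene Lipe by -0.95. In salivary gland the fatty acid transporter gene Slc27a4 differed by -0.92 and Dgat2, which makes triglycerides, by 0.84.

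Of 8 carbohydrate digestion and uptake genes, 2, 8 and 4 were tested in salivary gland, duodenum and macrophages. Lct, which encodes lactase, had the widest spread in duodenum, with -0.11 ± 3.21 in mice labelled Irgm1-/- and 2.82 ± 1.23 in wild type mice (SD, n = 3 each; difference -2.93, SE 1.56, limma adjusted p = 0.666). The glucose transporter gene Slc2a2 differed by -0.52 there. In macrophages the glucose transporter gene Slc5a1 differed by 1.01 and Mgam, a maltase, by 0.92. Of 5 further amylase genes listed, Amy2a4 had a probe, which was not well above background on any of the 20 arrays.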

How the data were processed

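Labelled RNA of each mouse was hybridised to 1 single-colour Agilent array (design 026655). Per the file headers, the intensity of each spot was background-subtracted and detrended within its array by Agilent Feature Extraction 11.5.1.1, with no scaling between arrays, and the deposited flags mark spots well above background or outlying. No spot was saturated, and 0.434% of 43020 spots were left out as outliers. Log2 intensity was set relative to the array's 75th percentile (salivary gland: over probes well above background on all its arrays). Of 39429 probes 27508 were named through RefSeq accessions (GRCm38.p6) and 11921 by the deposited names. A gene was represented by its probe of highest mean and tested if well above background on as many arrays as the smaller group has. limma 3.58.1 (R 4.3.3) gave Benjamini-Hochberg adjusted p-values over all genes, with a threshold of 0.05. The limma scripts were tested on simulated data.

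The members and gene lists were chosen with earlier results of these data known. Text names all members, up to 4 genes of a list past the threshold or up to 2 with the largest difference, the 10 genes most correlated with Pnlip and the 5 with Amy1; others are said to be chosen after their values were seen. A gene and a probe sequence that these rules name are not reported here. P-values measure the spread between arrays, and within a tissue each array is of a different mouse. Same-numbered mice deviated together in duodenum (r 0.272, 0.279 and 0.343) and macrophages (r 0.462, 0.25 and 0.661), but not in salivary gland, where 1 of 4 pairs was at -0.454. Alternatives covered background correction, scaling, filter, probe averaging, the slide or replicate number as a block, the authors' deposited series table of intensity values, and leaving out each mouse.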

Additional observations from a re-analysis of the deposited data

How the results depend on the processing

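In salivary gland and duodenum 0 members passed between the genotypes under every alternative run, leaving out each mouse included (0 to 0), and 0 passed in the interaction. Several values that missed the threshold changed sign, such as Amy1 in salivary gland, which lay between -2.16 and 1.80 with single mice left out. The median macrophage difference was -7.53 to -6.40 with single mice left out, and -5.23 where only genes well above background on every array were kept. With normexp background correction the macrophage difference was -6.98 for Pnlip, -7.06 for Pnliprp1 and -3.25 for Pnliprp2. The number of members that differed between wild type salivary gland and wild type duodenum was 3, 5 with normexp, and 2 to 5 with single mice left out (2 without duodenum wild type mouse 1, 5 without salivary gland wild type mouse 4). Amy2a5 passed there with normexp (4.73, limma adjusted p = 0.0392), median scaling (4.40, limma adjusted p = 0.0431), the mean of its probes (5.62, limma adjusted p = 0.0324) and without salivary gland wild type mouse 3 or 4 (6.96 and 6.89). Pnliprp1 passed with normexp (1.49, limma adjusted p = 0.0106) and had the other sign, short of the threshold, with median scaling (-0.31) and quantile normalization (-0.29).

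Over all genes, calls in salivary gland ranged from 117 to 662 against 262, in duodenum from 0 to 40 against 26, in the interaction from 25 to 86 against 49, and in the tissue comparison from 8422 to 24407 against 11702. With the replicate block 0 members passed in salivary gland, duodenum or the interaction, the macrophage median was -7.01, and the block changed no member's call. No paired analysis was possible because the salivary gland and duodenum mice of the tissue comparison are different animals. The single fit of 20 arrays counted the duodenum and macrophage arrays of the same mice as independent, a limit of its p-values. The filter on every array was not run for the tissue comparison or the interaction. Arrays number 3 or 4 per group, which limits precision, and dim salivary gland arrays left at most 48.8% of the probes measurable.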
